A study of Mus musculus with 9 samples.

Results

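This section describes 10 genes of the complement system and of microglia in the mouse hippocampus: C1qa, C1qb, C1qc, C3, Cx3cr1, Csf1r, Trem2, Tyrobp, P2ry12 and Tmem119. They were taken by name from a table of 23412 gene symbols, and all 10 were in it. Bulk RNA sequencing was done on 9 hippocampus samples collected at postnatal day 21 from animals labelled wild type. The 3 control samples are labelled sham. The 3 PFOS P1-7 samples came from pups that nursed on days 1 to 7 from dams given perfluorooctane sulfonate (PFOS, a persistent perfluorinated surfactant) by daily gavage at 1 mg/kg, and the 3 PFOS P8-14 samples from pups exposed in the same way on days 8 to 14. The study asked which postnatal window is sensitive. The sources used here do not give strain, sex or litter, nor whether each sample is a separate animal, so p-values measure only the spread between these samples, which may be technical.

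Microglia are the resident macrophages of the brain. They depend on the receptor Csf1r to survive, sense neurons through the fractalkine receptor Cx3cr1 and extracellular nucleotides through P2ry12, and carry Tmem119 as a surface marker that other brain cells lack. Trem2 binds lipids and signals through its adaptor Tyrobp. C1q, the starting molecule of the classical complement pathway, is made mostly by microglia in the brain. It is built from equal numbers of A, B and C chains, and with C3 it tags developing synapses that microglia then remove.

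Values are in TPM, a share of all transcripts that the authors scaled to the same total in each library. They are per transcript length and so can be set beside each other between genes. Differences are log2 values of TPM + 1 with their standard error (SE) from 1 limma model over all genes, which had to reach 1 TPM in at least 3 samples. Of the 10 genes, 9 passed that filter, among 14336 genes in all. C3 did not. An adjusted p (Benjamini-Hochberg over the 14336 genes) below 0.05 was the threshold. Depth cannot be read from TPM and is unknown.

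Libraries differed in choroid plexus RNA and in a trend on transcript length. Both varied within groups and were also unevenly spread between them, so each is partly confounded with exposure. Choroid plexus RNA was plentiful in 5 libraries, namely replicates 1 and 3 of PFOS P1-7, replicates 1 and 2 of PFOS P8-14 and replicate 3 of the control: the choroid plexus gene Ttr reached 9446 to 11626 TPM there, and 35.1 to 108 TPM in the other 4. The 12 choroid plexus markers had summed levels of 156 to 11020 TPM in control, 182 to 12940 TPM in PFOS P1-7 and 267 to 11060 TPM in PFOS P8-14. Within a library, longer transcripts tended to deviate one way and shorter ones the other, with Spearman's rho across genes between transcript length and deviation of -0.34 and -0.40 in control replicates 2 and 3, -0.15 in PFOS P8-14 replicate 2, and 0.11 to 0.36 in the others, control replicate 1 among them (0.15). The 12 neuron markers were present in each library, with summed levels of 6685 to 9142 TPM, among them Prox1, a marker of dentate granule neurons, at 17.1 to 51.5 TPM. In bulk tissue, fewer cells of a type and less RNA per cell cannot be told apart, and this holds for every value below.

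Across the 9 samples the 9 genes that passed the filter lay in the middle and upper part of the expressed range. C1qc was highest with a mean of 103 TPM, followed by C1qa at 86.1 and C1qb at 81.6 TPM. Then came Tyrobp at 66.9, Csf1r at 60.8, P2ry12 at 38.5, Cx3cr1 at 33.6, Trem2 at 25.3 and Tmem119 at 19.8 TPM. In the control group alone the 3 C1q genes could not be ranked, since their means of 98.8, 97.9 and 101 TPM differed by less than their SDs of 7.19, 9.47 and 9.34. C3 was far below all of them, at a mean of 0.367 TPM.

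**Figure D1:**
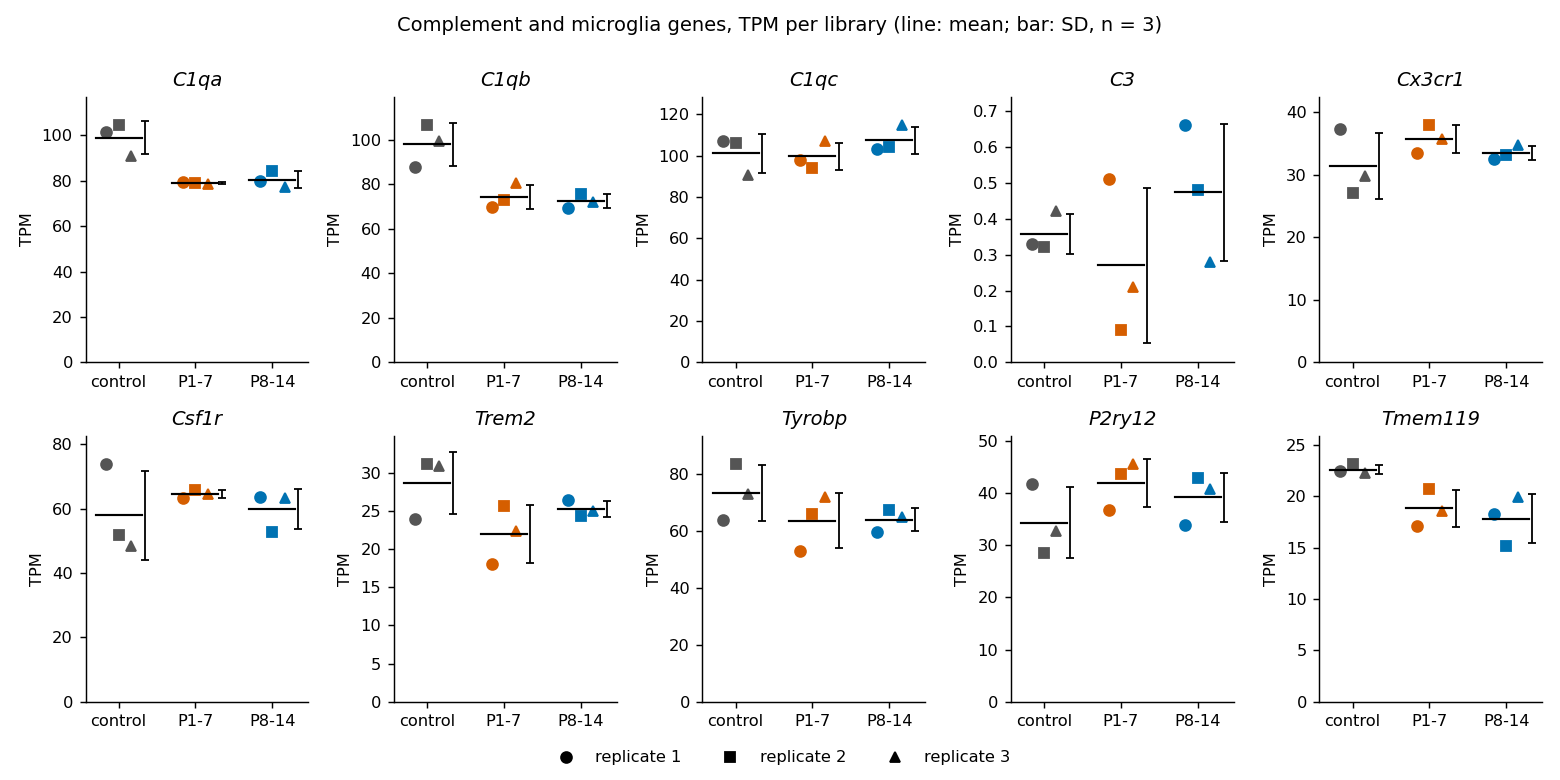
Level of each gene in every library, in TPM on a linear axis from 0; symbols mark replicates, the horizontal line is the group mean and the bar its SD (n = 3). The 6 exposed libraries lie below the 3 controls for C1qa, C1qb and Tmem119, while C1qc, Cx3cr1, Csf1r, Trem2, Tyrobp and P2ry12 overlap between groups.

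The clearest separation between exposed and control libraries was in the complement chains C1qa and C1qb, and it was absent from C1qc. The 3 genes lie side by side within 18.7 kb of chromosome 4 (mm10): C1qb at 136880126 to 136886200, C1qc at 136889801 to 136892936 and C1qa at 136895916 to 136898844. No gene in the table passed the threshold in any comparison (percent called 0% of 14336 genes in each), so none of the 10 did.

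C1qa, the A chain, stood at 101, 104 and 90.7 TPM in control replicates 1 to 3. In PFOS P1-7 it stood at 79.4, 79.0 and 78.4 TPM, and in PFOS P8-14 at 80.1, 84.3 and 77.0 TPM. Each exposed library was below the lowest control. The log2 difference from control was -0.32 (SE 0.07, 95% confidence interval -0.48 to -0.15) in PFOS P1-7, with a limma adjusted p = 0.181, and -0.29 (SE 0.07, -0.46 to -0.13) in PFOS P8-14, with a limma adjusted p = 0.424. The unadjusted limma p were 0.00174 and 0.00299.

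C1qb, the B chain, stood at 87.8, 107 and 99.3 TPM in control, at 69.7, 72.9 and 80.5 TPM in PFOS P1-7 and at 69.5, 75.6 and 72.1 TPM in PFOS P8-14. Here too the groups did not overlap with control. The log2 difference was -0.39 (SE 0.09, -0.59 to -0.19; limma adjusted p = 0.181) in PFOS P1-7 and -0.43 (SE 0.09, -0.63 to -0.22; limma adjusted p = 0.424) in PFOS P8-14, the lowest difference of the 9 genes in both comparisons. The unadjusted limma p were 0.00161 and 8.74e-04.

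C1qc, the C chain, did not follow. It stood at 107, 106 and 90.5 TPM in control, at 97.8, 94.3 and 107 TPM in PFOS P1-7 and at 103, 104 and 115 TPM in PFOS P8-14, so that the 3 groups overlapped. Its log2 difference was -0.02 (SE 0.09, -0.22 to 0.18; limma adjusted p = 0.923) in PFOS P1-7 and 0.09 (SE 0.09, -0.11 to 0.29; limma adjusted p = 0.674) in PFOS P8-14. A difference as large as that of C1qb lies outside both intervals.

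Because scaling cancels in a ratio within a library, the chains were also set against each other, a comparison chosen after their values were seen and given with no test. The ratio of C1qa to C1qc was 0.946, 0.984 and 1.003 in control, 0.812, 0.838 and 0.732 in PFOS P1-7, and 0.777, 0.808 and 0.670 in PFOS P8-14. The ratio of C1qb to C1qc was 0.820, 1.005 and 1.098 in control, 0.713, 0.773 and 0.751 in PFOS P1-7, and 0.675, 0.725 and 0.628 in PFOS P8-14. Both ratios were lower in each exposed library than in each control. The ratio of C1qa to C1qb overlapped, at 0.914 to 1.154 in control, 0.974 to 1.139 in PFOS P1-7 and 1.068 to 1.151 in PFOS P8-14. These ratios describe an unequal difference of the chain genes in these libraries, not which of them stayed level.

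**Figure D2:**
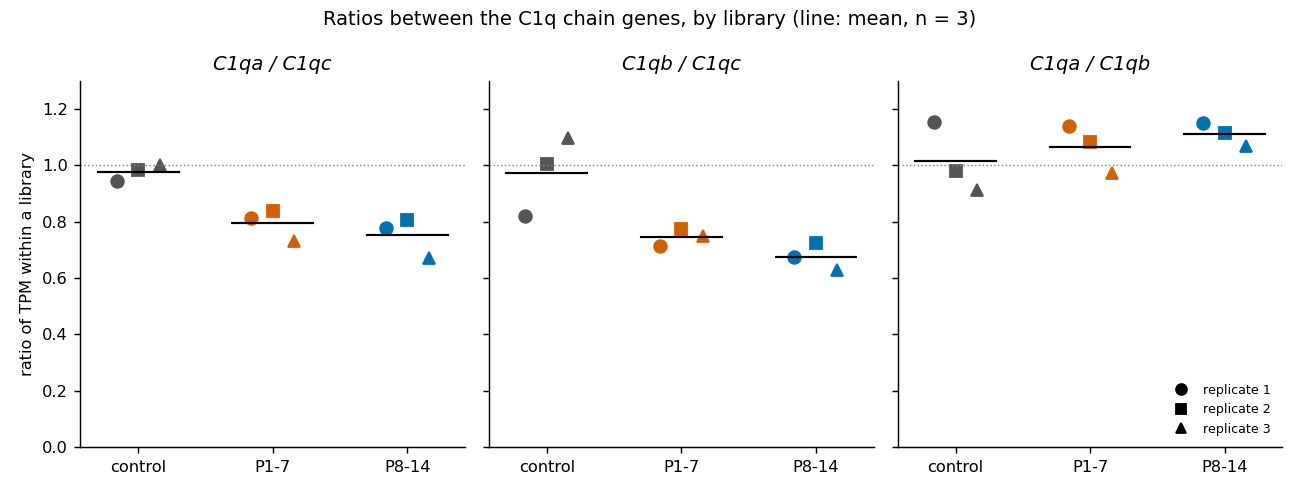
Ratio of TPM between C1q chain genes within each library, on a linear axis from 0; symbols mark replicates, the line is the group mean (n = 3) and the dotted line marks equal levels. C1qa to C1qc averaged 0.978 in control, 0.794 in PFOS P1-7 and 0.752 in PFOS P8-14, and C1qb to C1qc averaged 0.974, 0.746 and 0.676, whereas C1qa to C1qb overlapped between groups.

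The sequences just upstream of C1qb and C1qc are shown because these neighbours differed in their values. They are the 250 bases before the start of each gene, from RefSeq (GRCm38.p6, the assembly of mm10), on the minus strand, 5′ to 3′. Such a sequence was available here for 6 of the 10 genes. C1qa, Csf1r, Tyrobp and Tmem119 were not among them, so C1qa could not be read beside its neighbours. Capitals mark matches to GAGGAA, the core bound by the myeloid factor PU.1, on either strand.
C1qb, chr4:136886201-136886450: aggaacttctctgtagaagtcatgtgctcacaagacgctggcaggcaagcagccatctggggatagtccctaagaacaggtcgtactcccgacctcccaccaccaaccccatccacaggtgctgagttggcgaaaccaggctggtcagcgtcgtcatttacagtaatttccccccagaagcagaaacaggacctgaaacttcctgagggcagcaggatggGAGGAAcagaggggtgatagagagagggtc
C1qc, chr4:136892915-136893164: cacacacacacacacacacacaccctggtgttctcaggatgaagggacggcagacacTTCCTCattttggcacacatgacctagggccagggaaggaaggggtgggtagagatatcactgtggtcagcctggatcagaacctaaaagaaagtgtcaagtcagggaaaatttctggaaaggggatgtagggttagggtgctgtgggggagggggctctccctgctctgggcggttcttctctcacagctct

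C1qb had 1 match to GAGGAA beginning 30 bases before the start. The start used for C1qc lies inside the span given above for the gene. C1qc had 1 match to GAGGAA, on the opposite strand, beginning 193 bases before the start. Trem2 had 1 such match at 40 bases on the opposite strand, and C3, Cx3cr1 and P2ry12 had none. Over 32851 upstream sequences of the same length, 23.3% hold GAGGAA on either strand. A match to so short a motif is a description of the sequence only. Spi1, which encodes PU.1 and is named Sfpi1 in the table, differed by -0.34 (SE 0.17; limma adjusted p = 0.3) and -0.15 (SE 0.17; 0.708), in PFOS P1-7 and PFOS P8-14 against control. It was looked up because of this motif.

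C3, the component that C1q activity leads to, was low in each library. It was listed at 0.33, 0.32 and 0.42 TPM in control, at 0.51, 0.09 and 0.21 TPM in PFOS P1-7 and at 0.66, 0.48 and 0.28 TPM in PFOS P8-14. The groups overlapped, no fold was computed at these levels, and C3 was not tested.

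Trem2 and Tyrobp, a receptor and its adaptor, had means below control in both exposed groups, with overlap. Trem2 stood at 24.0, 31.1 and 30.9 TPM in control, at 18, 25.7 and 22.4 TPM in PFOS P1-7 and at 26.4, 24.4 and 25.1 TPM in PFOS P8-14. Control replicate 1 was the low control, and it lay below PFOS P1-7 replicate 2 and each PFOS P8-14 library. Against control, Trem2 differed by -0.37 (SE 0.14, -0.68 to -0.06; limma adjusted p = 0.23) in PFOS P1-7 and -0.17 (SE 0.14, -0.48 to 0.15; 0.61) in PFOS P8-14.

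Tyrobp stood at 63.7, 83.3 and 72.7 TPM in control, at 53.0, 66.0 and 71.8 TPM in PFOS P1-7 and at 59.6, 67.4 and 64.8 TPM in PFOS P8-14. Its log2 difference from control was -0.2 (SE 0.13, -0.49 to 0.08; limma adjusted p = 0.398) in PFOS P1-7 and -0.19 (SE 0.13, -0.47 to 0.1; 0.55) in PFOS P8-14. Control replicate 1 was again the lowest control. As a proportion of Tyrobp, Trem2 overlapped between groups, at 0.374 to 0.425 in control, 0.311 to 0.389 in PFOS P1-7 and 0.362 to 0.443 in PFOS P8-14.

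Tmem119, the microglial surface marker, had the tightest control values of the 10 genes relative to their level. It stood at 22.5, 23.1 and 22.3 TPM in control, at 17.1, 20.7 and 18.6 TPM in PFOS P1-7 and at 18.3, 15.2 and 20.0 TPM in PFOS P8-14. Each exposed library was below each control. The log2 difference was -0.26 (SE 0.11; limma adjusted p = 0.269) in PFOS P1-7 and -0.33 (SE 0.11, -0.59 to -0.08; 0.426) in PFOS P8-14. With the choroid plexus score as a covariate the values were -0.14 and -0.22, from a contrast that also took in the covariate's coefficient.

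The 3 receptors of resting microglia, Csf1r, Cx3cr1 and P2ry12, had means above control in both exposed groups, the opposite side from C1qa and C1qb. Csf1r, the receptor for the growth factors Csf1 and Il34, stood at 73.8, 51.9 and 48.3 TPM in control, at 63.2, 65.9 and 64.7 TPM in PFOS P1-7 and at 63.6, 52.8 and 63.2 TPM in PFOS P8-14. Control replicate 1 was the highest of all 9 libraries and the other controls were the lowest. The log2 difference was 0.18 (SE 0.15, -0.15 to 0.5; limma adjusted p = 0.503) in PFOS P1-7 and 0.07 (SE 0.15, -0.26 to 0.39; 0.858) in PFOS P8-14.

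Cx3cr1 stood at 37.4, 27.2 and 29.8 TPM in control, at 33.5, 38.0 and 35.7 TPM in PFOS P1-7 and at 32.5, 33.2 and 34.7 TPM in PFOS P8-14. Its difference on the log2 scale was 0.19 (SE 0.11, -0.07 to 0.44; limma adjusted p = 0.383) in PFOS P1-7 and 0.1 (SE 0.11, -0.16 to 0.35; 0.711) in PFOS P8-14. Control replicate 1 lay among or above the exposed libraries, and the other controls lay below all of them.

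P2ry12 stood at 41.7, 28.5 and 32.7 TPM in control, at 36.8, 43.7 and 45.5 TPM in PFOS P1-7 and at 33.8, 42.9 and 40.9 TPM in PFOS P8-14. On the log2 scale P2ry12 differed by 0.3 (SE 0.15, -0.04 to 0.63; limma adjusted p = 0.31) in PFOS P1-7 and 0.2 (SE 0.15, -0.13 to 0.53; 0.575) in PFOS P8-14. As for Cx3cr1, the controls were split, with replicate 1 high and replicates 2 and 3 below each exposed library.

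**Figure D3:**
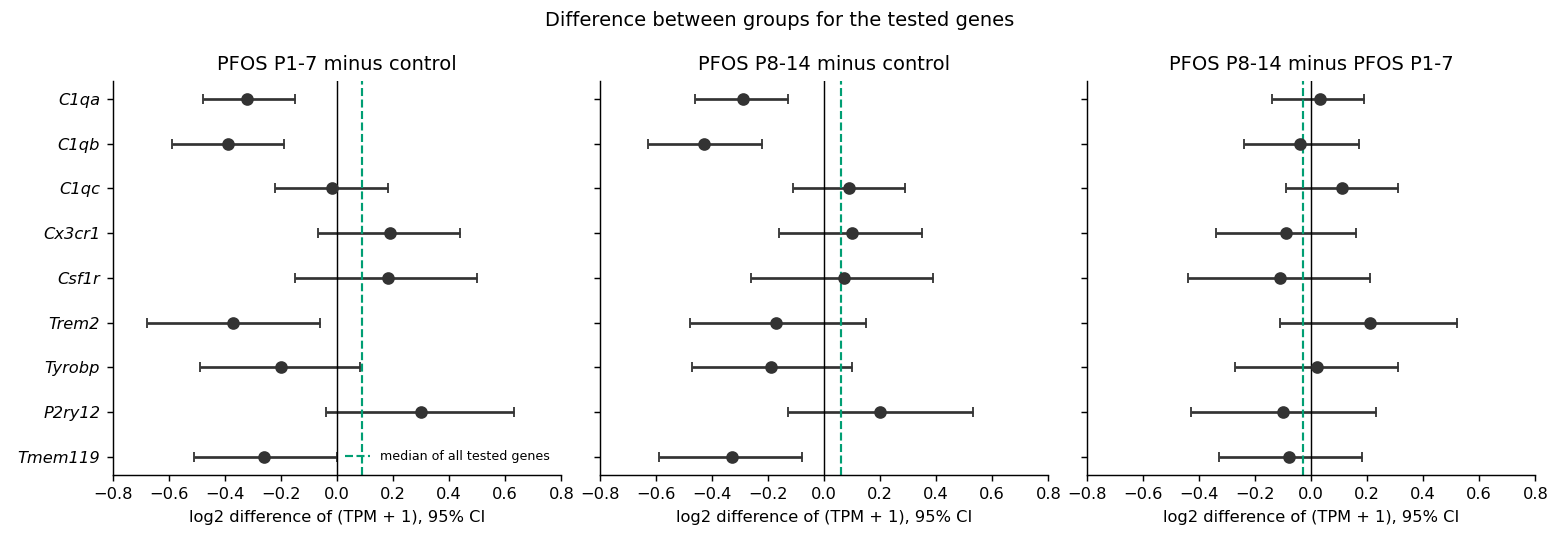
Log2 difference of TPM + 1 with its 95% confidence interval for the 9 tested genes in the 3 comparisons; the dashed line is the median of all 14336 tested genes. C1qa and C1qb lie left of 0 in both comparisons with control, from -0.29 to -0.43, C1qc lies near 0, and every interval between the exposed groups includes 0.

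The counts were read against all genes tested. In PFOS P1-7 against control, 4 of the 9 genes were lower at an unadjusted p below 0.05 (C1qa, C1qb, Trem2 and Tmem119), where 5.79% of all tested genes were, and 0 were higher, where 12.5% were. Non-overlapping lower values were found for 3 genes (C1qa, C1qb and Tmem119), against 6.56% of all tested genes, and non-overlapping higher values for 0, against 12.3%. Of the 9 genes, 3 were higher and 6 lower whatever their p, while 65.5% of all tested genes were higher. The median difference of the 9 genes was -0.2, and that of all tested genes was 0.09.

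In PFOS P8-14 against control, 3 genes were lower at an unadjusted p below 0.05 (C1qa, C1qb and Tmem119), where 4.65% of all tested genes were, and 0 were higher, where 6.33% were. The same 3 genes had non-overlapping lower values, against 5.99% of all tested genes, and 0 had higher ones, against 7.31%. Whatever their p, 4 were higher and 5 lower, while 62.1% of all tested genes were higher. The median was -0.17, against 0.06 for all tested genes. The comparisons share the 3 control samples, so the second is not independent of the first.

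Between the exposed groups, limma gave 0 lower and 0 higher genes among the 9 by unadjusted p (0.635% and 0.467% of all tested genes), and 0 had non-overlapping values in either direction (4.15% lower and 1.9% higher among all tested genes). The differences, PFOS P8-14 minus PFOS P1-7, ran from -0.11 for Csf1r to 0.21 for Trem2 (limma adjusted p = 0.9998 for each of the 9). For C1qa the difference was 0.03 (95% interval -0.14 to 0.19) and for C1qb -0.04 (-0.24 to 0.17). A p that misses the threshold does not show that the windows act alike. These intervals rest on the spread between these samples, which may be technical, and set no limit on how far apart the windows lie.

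Transcript length was set beside these results because the libraries differ in their length trend. The median length of a gene's GENCODE transcripts is 580.5 bases for Tyrobp, 1040 for C1qa, 1072 for Trem2, 1088 for C1qb, 1203 for C1qc, 1289 for Tmem119, 2157 for P2ry12, 2323 for Csf1r and 3753 for Cx3cr1. Tested genes within 10% of that length had median differences in PFOS P1-7 against control of -0.06 near Tyrobp, -0.04 near C1qa and C1qb, -0.03 near Trem2, -0.01 near C1qc, 0 near Tmem119, 0.07 near P2ry12, 0.09 near Csf1r and 0.15 near Cx3cr1. For Cx3cr1, at 0.19, the gene and its neighbours in length were close. C1qa (-0.32), C1qb (-0.39), Trem2 (-0.37), Tyrobp (-0.2), Tmem119 (-0.26) and P2ry12 (0.3) were further from 0 than the median of their neighbours. So was Csf1r (0.18), but by less than its SE of 0.15. The spread among neighbours was not computed. The longest transcript is 4701 bases for Csf1r and 2242 for Tmem119, and which transcripts were expressed is not known. Neighbours chosen by another length could therefore differ. C1qc (-0.02) and its neighbours were close. With each library's trend on length and GC content removed, the differences in PFOS P1-7 and PFOS P8-14 were -0.22 and -0.23 for C1qa, -0.31 and -0.38 for C1qb, 0.05 and 0.13 for C1qc, -0.29 and -0.12 for Trem2, 0.23 and 0.19 for P2ry12, and 0.02 and -0.02 for Cx3cr1. In that fit the median of all tested genes was 0.01 in both comparisons.

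Leaving out control replicate 1 changed the calls. Without it, limma called 6 of the 9 genes in PFOS P1-7 against control, where 18.5% of all tested genes were called: C1qa (-0.3, adjusted p = 0.0315), C1qb (-0.47, 0.00935) and Trem2 (-0.49, 0.0336) lower, and Csf1r (0.36, 0.0293), Cx3cr1 (0.32, 0.0351) and P2ry12 (0.44, 0.0438) higher. In PFOS P8-14 it called C1qb (-0.5, adjusted p = 0.0129), where 12.1% of all tested genes were called. The remaining controls are those with the most negative length trends. With that trend removed as well, a setting added after the data were seen, P2ry12 (0.41, adjusted p = 0.0204) was called in PFOS P1-7, and C1qb (-0.45, 0.0368) and P2ry12 (0.38, 0.0318) in PFOS P8-14. With array weights, which give deviating libraries less weight, limma called C1qa, C1qb and Trem2 lower and Cx3cr1 and P2ry12 higher in PFOS P1-7 (20.3% of all tested genes) and C1qa and C1qb lower in PFOS P8-14 (7.35%).

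Differences were also read within the libraries rich and poor in choroid plexus RNA, given as values since no test was run on so few libraries. For C1qa and C1qb the direction was fixed in advance, because each exposed library was below each control, so only the sizes are informative. Among the 5 rich libraries, with 1 control, the differences were -0.2 and -0.14 for C1qa and -0.4 and -0.45 for C1qb in PFOS P1-7 and PFOS P8-14. Among the 4 poor libraries, with 2 controls and 1 library of each exposed group, they were -0.38 and -0.41 for C1qa and -0.4 and -0.42 for C1qb. C1qc was at 0.18 and 0.2 in the rich and at -0.18 and 0.11 in the poor libraries.

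**Figure D4:**
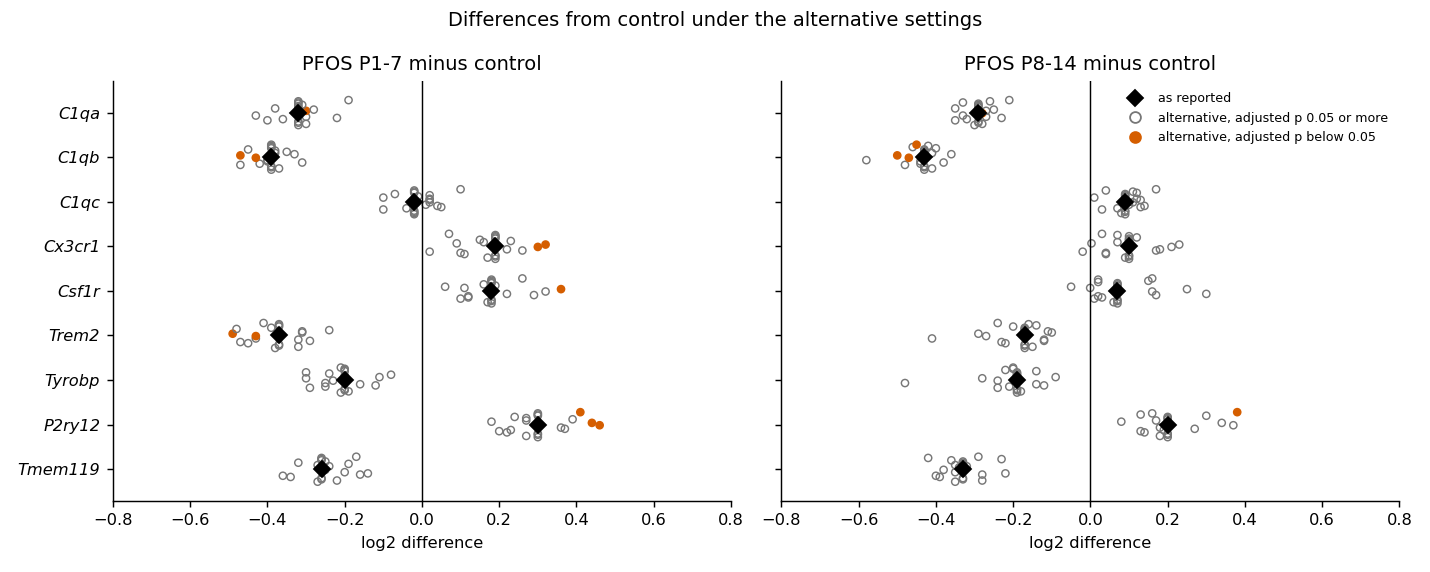
Log2 difference from control for each tested gene as reported (diamonds) and under 22 alternative settings (circles, orange where the adjusted p is below 0.05). The replicate block and the choroid plexus covariate are included, although their contrasts also took in coefficients of the added terms. Their values are not plain group differences. C1qa ranged from -0.43 to -0.19 and C1qb from -0.47 to -0.31 in PFOS P1-7, and from -0.35 to -0.21 and -0.58 to -0.36 in PFOS P8-14, while C1qc ranged from -0.1 to 0.1 and from 0.01 to 0.17.

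Among themselves the genes fell along different lines over the 9 samples. Pearson's r of log2(TPM + 1) was 0.9 between Cx3cr1 and P2ry12, 0.82 between Cx3cr1 and Csf1r, 0.85 between C1qa and C1qb, 0.8 between C1qb and Tyrobp and 0.76 between Trem2 and Tyrobp. Between C1qc and C1qa it was 0.01, and between C1qc and C1qb -0.13. Across the lines it was negative, at -0.63 between C1qb and Cx3cr1 and -0.57 between Trem2 and Csf1r. With group means removed, C1qb with Tyrobp stood at 0.92 and Cx3cr1 with P2ry12 at 0.86, but C1qa with C1qb at 0.1. With the length and GC trend removed, Cx3cr1 with Csf1r was at 0.52 and C1qb with Cx3cr1 at 0.03, nearer to 0 than before. Across the lines, Cx3cr1 with Trem2 went from -0.57 to -0.09 and Cx3cr1 with Tyrobp from -0.52 to 0.03. Trem2 with Csf1r went from -0.57 to -0.39 and C1qb with Csf1r from -0.53 to -0.32. C1qa with Cx3cr1 changed sign, from -0.48 to 0.18. Some pairs kept their values or moved away from 0. Among them, C1qa with C1qb was at 0.83 and Csf1r with P2ry12 went from 0.58 to 0.7. C1qb with P2ry12 went from -0.56 to -0.6, and Trem2 with P2ry12 stayed at -0.55. The samples share library properties such as the length trend, so these correlations describe the 9 libraries only.

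By the same measure, the 5 genes outside the list most like the mean of the 9 tested genes over the 9 samples were Dzip1 (r 0.964), Stk16 (0.954), Ubl4 (0.945), Cbfa2t3 (0.924) and Lsm10 (0.916), among 11462 genes with a mean of at least 5 TPM. The 5 most like the mean of C1qa, C1qb and C1qc were Dbndd1 (0.939), Rps3 (0.934), Ube2e1 (0.927), Ntpcr (0.923) and Abcd4 (0.923). No gene of the microglia or complement lists was among these 10.

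Other microglia genes were found on both sides of control, in proportions near those of all tested genes, of which 65.5% were higher in PFOS P1-7 and 62.1% in PFOS P8-14. Of 20 other homeostatic microglia genes, 14 were higher and 6 lower in PFOS P1-7 (median 0.11, against 0.09 for all tested genes), and 13 and 7 in PFOS P8-14 (0.09 against 0.06). None passed in limma. At an unadjusted p below 0.05, 2 were higher and 2 lower in PFOS P1-7, and 0 and 2 in PFOS P8-14, where 12.5% higher and 5.79% lower, and 6.33% and 4.65%, were found among all tested genes. Sall1, a transcription factor that maintains microglial identity, stood at 10.2 ± 1.21 TPM (SD, n = 3) in control, 12.8 ± 0.236 in PFOS P1-7 and 11.6 ± 0.526 in PFOS P8-14. Rgs10, a regulator of G protein signalling, was on the other side at 66.1 ± 5.41, 55.8 ± 2.41 and 52.2 ± 1.94 TPM, with no overlap of either exposed group with control (limma adjusted p = 0.216 and 0.424). Slc2a5, the fructose transporter of microglia, stood at 1.99 ± 0.278, 2.45 ± 0.231 and 2.62 ± 0.0379 TPM.

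Pan-myeloid genes had 27 tested members of 30, with 16 higher and 11 lower in PFOS P1-7 (median 0.03) and 14 and 13 in PFOS P8-14 (0.02). None passed in limma, and 0 higher and 2 lower in PFOS P1-7, and 0 and 1 in PFOS P8-14, had an unadjusted p below 0.05. Among all tested genes, 12.5% were higher and 5.79% lower at that p in PFOS P1-7, and 6.33% and 4.65% in PFOS P8-14. Aif1, which encodes the microglial protein Iba1, stood at 13.1, 17.6 and 12.5 TPM in control, at 13.04, 11.1 and 14.3 TPM in PFOS P1-7 and at 8.33, 12.2 and 8.82 TPM in PFOS P8-14, with a difference of -0.52 (SE 0.17; limma adjusted p = 0.426) in the last. Laptm5, a lysosomal membrane protein gene, stood at 37.1 ± 2.56, 30.02 ± 1.58 and 32.4 ± 1.85 TPM, and Cd68, another lysosomal membrane gene, at 9.89 ± 1.73, 12.2 ± 1.41 and 12.3 ± 1.31 TPM. Activated microglia genes had 15 tested members of 25, with 10 higher and 5 lower in both comparisons (median 0.07 in each). None passed in limma, and only 1, higher in PFOS P8-14 (Igf1), had an unadjusted p below 0.05, where 6.33% of all tested genes were higher at that p. Of the 25, 8 stayed below 1 TPM in every library, among them Il1b, Tnf, Il6, Ccl2 and Nos2. Igf1, a growth factor, stood at 3.38 ± 0.183 TPM in control, 4.1 ± 0.281 in PFOS P1-7 and 4.74 ± 0.636 in PFOS P8-14, without overlap between control and either exposed group. Ctsz, a lysosomal protease gene, stood at 50.1 ± 5.71, 46.8 ± 5.29 and 46.1 ± 8.67 TPM, and Cxcl10, an interferon-induced chemokine gene, at 1.86 ± 1.53, 2.12 ± 1.55 and 1.03 ± 0.181 TPM.

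In the rest of the complement cascade, 7 of 17 listed genes were tested, with 4 higher and 3 lower in both comparisons (medians 0.18 and 0.01). None passed in limma, and 1, Cfp, had an unadjusted p below 0.05, on the lower side in both. Among all tested genes, 5.79% and 4.65% were lower at that p in PFOS P1-7 and PFOS P8-14. Cfp, which encodes properdin, the stabiliser of the alternative pathway, had the lowest difference among the 7 tested genes in both comparisons. It stood at 10.5, 16.8 and 11.9 TPM in control, at 6.71, 7.08 and 9.05 TPM in PFOS P1-7 and at 8.66, 6.3 and 7.48 TPM in PFOS P8-14, with no overlap. On the log2 scale Cfp differed by -0.69 (SE 0.18; limma adjusted p = 0.185) and -0.71 (SE 0.18; 0.424). C1ra and C1s1 (C1s in the table), the proteases that join C1q in the C1 complex, were low, at 0.83 to 2.32 TPM and 0.62 to 1.59 TPM over the 9 libraries. C4b, the next substrate, stood at 10.9 ± 4.45, 13.2 ± 1.23 and 10.4 ± 2.22 TPM, and Masp1, a protease of the lectin pathway, at 4.94 ± 0.755, 5.98 ± 0.414 and 5.81 ± 0.585 TPM. Masp2, another lectin pathway protease, was too low to be tested, listed at 1.51, 0.55 and 0.95 TPM in control, at 0.25, 0.66 and 0.28 TPM in PFOS P1-7 and at 0.71, 0 and 0.92 TPM in PFOS P8-14, with overlap, and it was singled out after its values were seen. Mbl2 and Cfd were listed at 0 in every library.

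Complement receptors and inhibitors had 15 tested members of 23, with 12 higher and 3 lower in PFOS P1-7 (median 0.21 against 0.09) and 15 higher and 0 lower in PFOS P8-14 (0.23 against 0.06). None passed in limma, and 3 in each comparison had an unadjusted p below 0.05, all higher. Among all tested genes, 65.5% and 62.1% were higher, and 12.5% and 6.33% were so at that p. Clu, which encodes clusterin, an inhibitor of the terminal complex, stood at 1176, 1165 and 1065 TPM in control, at 1295, 1285 and 1363 TPM in PFOS P1-7 and at 1379, 1298 and 1327 TPM in PFOS P8-14, without overlap with control. Susd4, a complement inhibitor of neurons, stood at 106 ± 14.8, 127 ± 5.77 and 123 ± 3.83 TPM, with overlap, and Vtn, which encodes vitronectin, at 87.2 ± 16.8, 79.9 ± 9.3 and 86.5 ± 6.56 TPM. The subunits of complement receptor 3, with which microglia bind C3 fragments, were Itgam at 9.67 ± 3.1, 11.7 ± 1.5 and 10.5 ± 1.55 TPM and Itgb2 at 2.28 ± 0.826, 2.47 ± 0.311 and 3.05 ± 0.375 TPM. The anaphylatoxin receptor genes C3ar1 and C5ar1 were listed at 0.28 to 1.41 TPM and 0.12 to 0.81 TPM over the 9 libraries and were not tested.

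Most ligands named here for the microglial receptors overlapped between groups. Cx3cl1, fractalkine, which neurons make, stood at 648, 524 and 538 TPM in control, at 596, 644 and 624 TPM in PFOS P1-7 and at 595, 577 and 636 TPM in PFOS P8-14. The Csf1r ligands stood at 12.5 ± 2.84, 14.6 ± 1.19 and 13.3 ± 0.352 TPM for Csf1, and at 67.3 ± 8.65, 62.1 ± 1.3 and 65.5 ± 11.3 TPM for Il34. Tgfb1, which microglia need to keep their identity, stood at 6.04 ± 0.71, 5.54 ± 1.09 and 5.25 ± 0.625 TPM. Tgfb2 was without overlap, at 22.4, 20.1 and 21.9 TPM in control, at 28.5, 24.5 and 29.7 TPM in PFOS P1-7 and at 27.0, 24.2 and 25.2 TPM in PFOS P8-14 (log2 differences of 0.34 and 0.24; limma adjusted p = 0.19 and 0.443). Apoe, a Trem2 ligand made mostly by astrocytes, stood at 4331 ± 371, 4554 ± 260 and 4898 ± 438 TPM. Of the 15 tested genes of this list of 18, 12 were higher and 3 lower in both comparisons (medians 0.2 and 0.11), and none passed in limma, with 3 higher in PFOS P1-7 and 2 in PFOS P8-14 at an unadjusted p below 0.05 (12.5% and 6.33% of all tested genes).

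**Figure D5:**
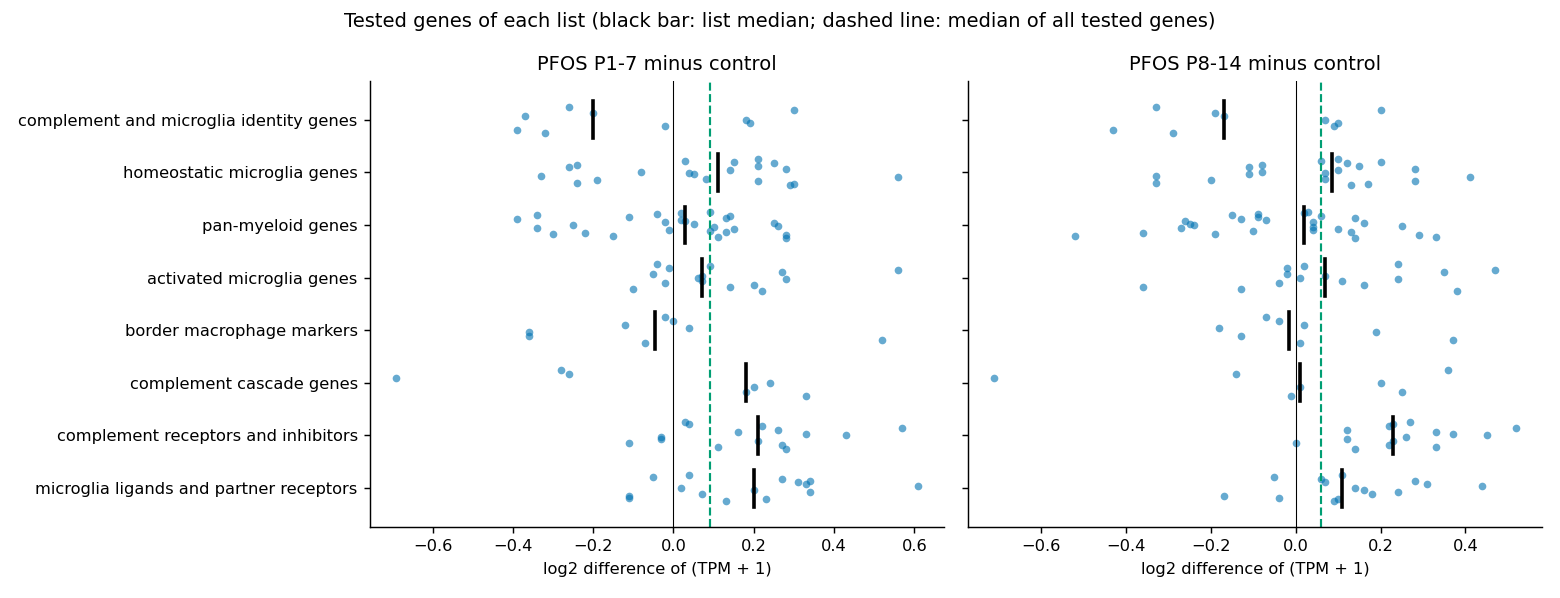
Log2 difference from control of the tested genes of each list (points) with the list median (black bar) and the median of all 14336 tested genes (dashed line). The complement and microglia identity genes have medians of -0.2 and -0.17, whereas the other homeostatic microglia genes lie at 0.11 and 0.09 and the complement receptors and inhibitors at 0.21 and 0.23.

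Markers of other cells that could carry these transcripts were read in the same libraries. Border macrophage markers had 8 tested members of 12, with 2 higher and 6 lower in PFOS P1-7 (median -0.05) and 4 and 4 in PFOS P8-14 (-0.02). Their summed level was 18.2 to 23.3 TPM in control, 16.5 to 20.1 in PFOS P1-7 and 13.6 to 24.9 in PFOS P8-14, with Siglec1, Cd209f and Clec12a below 1 TPM in every library. Mrc1, the macrophage mannose receptor, stood at 1.3 to 2.7, 1.71 to 1.92 and 1.3 to 3.24 TPM. The members with the smallest p were Folr2 (0.52) and Cbr2 (-0.36) in PFOS P1-7 and Pf4 (0.19) and Stab1 (-0.18) in PFOS P8-14. The monocyte marker Ccr2 was listed at 0 to 0.16 TPM over the 9 libraries. Blood leukocyte and erythroid markers had 4 tested members of 17, with 2 higher and 2 lower in PFOS P1-7 (median 0.14) and 1 and 3 in PFOS P8-14 (-0.76), and summed levels of 1848 to 3101, 1360 to 2630 and 1168 to 1529 TPM. Those with the smallest p were Hba-a2, a globin gene (0.39 and 0.01), S100a9 of neutrophils (-0.76 in PFOS P1-7) and Alas2 of red cell precursors (-0.63 in PFOS P8-14), the only one with an unadjusted p below 0.05. Hba-a1, another tested globin gene, had lower means in the exposed groups, at 1414 ± 1243, 808 ± 677 and 325 ± 295 TPM, with overlap. It was listed at 0 in control replicate 1 and PFOS P8-14 replicate 1, where Hba-a2 was highest in its group. The part of these cells in the results was not tested.

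Markers of the other brain cells gave medians of 0.1 and 0.06 for 12 astrocyte genes, 0.21 and 0.13 for 12 oligodendrocyte lineage genes, 0.26 and 0.24 for 12 neuron genes, 0.11 and 0.07 for 12 endothelial and mural genes, and 1.65 and 1.57 for 12 choroid plexus genes, in PFOS P1-7 and PFOS P8-14 against control. None of these genes passed in limma. At an unadjusted p below 0.05 in PFOS P1-7 and PFOS P8-14, 6 and 4 neuron genes were higher, 1 and 0 astrocyte genes were higher, and 1 and 0 endothelial genes were higher with 1 and 1 lower. Over all tested genes 12.5% and 6.33% were higher and 5.79% and 4.65% lower at that p, so 1 of 12 is near the background. The astrocyte gene was Sox9 (0.43) and the endothelial genes were Ocln (0.41) and, on the lower side, Cldn5 (-0.43 and -0.3). By the rule on the smallest p, the neuron genes were Gad2 (0.38 in PFOS P1-7), Neurod2 (0.28 in PFOS P8-14) and, on the lower side, Nefm (-0.05 in PFOS P1-7). The others were the myelin gene Mbp (0.38 and 0.32), Olig1 (-0.01 and -0.05), S100b (-0.15 and -0.1), Pdgfrb (0.26 in PFOS P8-14) and the choroid plexus gene Kl (1.45 and 1.19). The microglia genes were thus read in libraries in which neuron markers had higher medians in the exposed groups, and the part of that in the results was not tested.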

How the data were processed

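RNA was extracted from hippocampus and made into stranded poly(A) libraries with the TruSeq kit, per the labels' protocols. The submitters' processing notes name bcl2fastq, fastp 0.21.0, STAR 2.5.3a, RSEM 1.3.3 and mm10. The gene annotation is not given in the sources used here. The authors deposited TPM per gene symbol with 2 decimals, each library summing to 1000000. The table holds 23412 symbols in 9 columns, 1 per sample. TPM keep no depth, so no counting interval was computed.

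Genes at 1 TPM or more in at least 3 samples were tested (14336) with limma 3.58.1 in R 4.3.3 on log2(TPM + 1), with a mean per group, a mean-variance trend and two-sided Benjamini-Hochberg adjustment over all genes. Fold changes on this scale understate those of low genes. The fit was tested on simulated data.

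Members and lists were chosen with earlier results of these data known, so lists are described by counts and medians, without a list test. Named besides the 10 genes are the gene with the smallest p per list, direction and comparison, a fixed set of partners (some are not reported here), and the 5 genes most alike by Pearson's r. The mean over the members used the 9 tested, since C3 was not tested. Spi1 was added for the motif, and the C1q ratios after their values were seen. List genes under older symbols were matched through RefSeq synonyms. Positions and upstream sequences are RefSeq GRCm38.p6, and transcript lengths are GENCODE M21 (99.2% of tested genes). The settings varied were the pseudocount (0.1 and 5), the filter (none and 5 TPM), median-of-ratios and quantile scaling, removal of length and GC trends by loess, a choroid plexus covariate, a replicate block, only the compared groups, array weights, no variance trend, and each sample left out.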

Additional observations from a re-analysis of the deposited data

How the results depend on the processing

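Under 22 settings the direction of C1qa, C1qb, Trem2, Tyrobp, Tmem119 and P2ry12 against control did not change. For C1qa, C1qb and Tmem119 each exposed library was below each control. Settings that keep that order, such as another pseudocount or single libraries left out, could not change their direction. With the replicate block, or the choroid covariate against control, the contrast also took in coefficients of the added terms. Values from those settings are therefore not plain group differences. The count of genes called, 0 in each comparison, was 2914 with array weights in PFOS P1-7 (1053 in PFOS P8-14) and 1403 (1168) without control replicate 1 after removing the trend on length and GC, the setting added later; with single libraries left out it ranged from 0 to 2658 in PFOS P1-7 and from 0 to 1741 in PFOS P8-14, the high ends without control replicate 1. The replicate block gave 5 calls in PFOS P8-14, which are not calls of a plain group difference. The median of the 9 genes in PFOS P1-7 was -0.29 with median-of-ratios scaling and -0.12 after removal of the length and GC trend, and in PFOS P8-14 it was -0.33 with the replicate block and -0.24 with array weights. Without single libraries it ranged from -0.26 to -0.08 and from -0.27 to -0.09.

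Some values changed sign. C1qc in PFOS P1-7 was 0.05 with length and GC removed (0.1 also without control replicate 1), 0.04 with the choroid covariate, 0.01 with the replicate block and 0.02 with array weights. Cx3cr1 in PFOS P8-14 was -0.02 with length and GC removed. Between the exposed groups, C1qa was -0.02 with length and GC removed (with or without control replicate 1), and with the replicate block Csf1r was 0.08 and Tyrobp -0.23; Tyrobp was -0.01 with array weights. With single libraries left out, the ranges that cross 0 were -0.1 to 0.02 for C1qc in PFOS P1-7 and -0.05 to 0.25 for Csf1r in PFOS P8-14; between the exposed groups they were -0.01 to 0.06 for C1qa, -0.08 to 0.02 for C1qb, -0.19 to 0.00034 for P2ry12, -0.16 to 0.03 for Tmem119 and -0.11 to 0.11 for Tyrobp. The cause was not tested.

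The labels do not say whether equal replicate numbers pair the samples. Same-numbered libraries correlated at -0.47 to 0.53 in their deviations from group means (9 pairs). The own number was the best match in 6 of 18 cases. These deviations also hold choroid plexus RNA and the length trend, so they cannot settle whether samples were paired. None of the 9 genes was called with the replicate block. Its contrast also took in coefficients of the block, so it cannot show whether pairing would change a call.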
